A study of Homo sapiens with 66 samples.

Results

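Basal RNA levels were compared between AML cell lines that need much etoposide to die and lines that need little. The high-IC50 group holds 3 lines with an etoposide IC50 above 4 µM, which are F-36P (FAB class M6), KASUMI-1 (M2) and MONO-MAC-6 (M5). The low-IC50 group holds 8 lines with an IC50 below 2 µM, which are HL-60 and NB-4 (M3), MOLM-13, MV-4-11, NOMO-1 and THP-1 (M5), and OCI-AML2 and OCI-AML3 (M4). The limits were set for this comparison on the IC50 measured by the study, which also gives the FAB classes. Lines were placed by IC50, but the groups were chosen with earlier results of these data known. The study also took these 3 lines as resistant, with an IC50 above the third quartile. Of 66 libraries, the 33 untreated ones were used, with 3 libraries per line. Cells of these libraries received medium alone for 24 h, and each library pooled 3 wells. A line descends from a single patient and 3 lines stand for resistance, so what separates the groups cannot be told apart from what else those 3 lines share. According to the study, F-36P grew with GM-CSF and MONO-MAC-6 in a medium with insulin, and F-36P and KASUMI-1 received more serum than MONO-MAC-6, so culture conditions also differ between lines. The study's methods speak of biological replicates in general, and the libraries of a line measure the spread within that line only.

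Etoposide traps topoisomerase II on DNA after it has cut both strands, and the trapped enzyme leaves double-strand breaks. The α enzyme (TOP2A) peaks in dividing cells and the β enzyme (TOP2B) is made throughout the cell cycle. Breaks are sensed by the MRE11-RAD50-NBN complex and the kinases ATM and ATR, and are mended by end joining or, in cells that have copied their DNA, by homologous recombination with BRCA1, BARD1 and BRCA2. Export by the pump ABCB1 and the loss of SLFN11, a protein that halts stressed replication forks, are known routes to drug tolerance in other settings.

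Reads on genes ranged from 18616941 to 21295862 in the 9 high-IC50 libraries and from 18261596 to 21304265 in the 24 low-IC50 libraries, and a count of 0 in a line allows up to 0.0479 to 0.052 CPM (counting error only). Genes whose line mean reached 1 CPM numbered 12381 ± 139 (SD, n = 3 lines) in the high-IC50 group and 12340 ± 537 (SD, n = 8 lines) in the low-IC50 group, which did not differ (exact two-sided permutation test over 165 splits, p = 0.921; the smallest possible p is 0.00606). Marker genes differed between the 3 high-IC50 lines. F-36P had all 12 erythroid markers at 1 CPM or more, with a summed level of 8374.1 CPM, while the other 10 lines had 2 or 3 of them. KASUMI-1 had the highest summed level of granulocyte markers, 28620.9 CPM, and in F-36P that sum was 1.59 CPM. MONO-MAC-6 had 8 of 10 monocyte markers at 1 CPM or more, against 2 to 9 in the low-IC50 lines, and 6 of 7 granulocyte markers. Monocyte markers did not follow the FAB class throughout. MV-4-11 (M5) had 3 of them at 1 CPM or more, NB-4 (M3) 6 and OCI-AML3 (M4) 9. The summed levels of T cell, B cell and NK cell markers stayed at or below 188.0 CPM in every line. The untreated libraries of F-36P differed most from each other. Between its replicates 1 and 3 the chi-square statistic was 91.4 times its degrees of freedom.

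No gene passed the test between the groups. Of 18062 genes tested, edgeR's quasi-likelihood test on counts summed per line called 0 (0%) at an FDR under 0.05 together with a more than 2-fold difference, and the smallest adjusted p was 0.0996. At an unadjusted p below 0.05 there were 1796 genes (9.94%), of which 1045 (5.79%) were higher and 751 (4.16%) lower in the high-IC50 lines. Other tools gave other counts on the same genes. DESeq2 called 303 (1.68%), with 133 higher (0.736%) and 170 lower (0.941%), and limma on the line means of log2(CPM + 0.5) called 11 (0.0609%), with 8 higher (0.0443%) and 3 lower (0.0166%). Leaving out MONO-MAC-6 raised the count of the quasi-likelihood test from 0 to 96.

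The 3 high-IC50 lines were therefore described by levels. A gene was taken as separated when the mean CPM of each high-IC50 line lay above the highest, or below the lowest, of the 8 low-IC50 lines. This held for 403 genes (2.23%), of which 215 (1.19%) were higher and 188 (1.04%) lower. When library sizes were used without TMM factors, the split was 170 higher and 225 lower. Protein-coding genes made up 176 of the higher and 137 of the lower genes. Most gaps were narrow, with a median ratio between the nearest high-IC50 and low-IC50 line of 1.10 among the higher and 1.08 among the lower genes, on CPM + 0.5. A gap of at least 2-fold was seen for 7 higher (0.0388%) and 7 lower genes (0.0388%). The gene just inside this limit was SRSF12 at 2.13 and the next outside it NR6A1 at 1.99 among the higher, and PGGHG at 2.02 and RFC3 at 1.96 among the lower genes. All 9 high-IC50 libraries lay outside the range of all 24 low-IC50 libraries for 73 higher (0.404%) and 39 lower genes (0.216%). MONO-MAC-6 was the high-IC50 line nearest to the low-IC50 range in 50.2% of the higher and 44.1% of the lower genes, more often than F-36P (23.3% and 24.5%) or KASUMI-1 (26.5% and 31.4%).

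PDE6B, the β subunit of the rod photoreceptor phosphodiesterase, had the widest gap among the higher protein-coding genes. Its level was 3.48 CPM ± 0.32 (SD, n = 3) in F-36P, 12.8 CPM ± 1.33 in KASUMI-1 and 8.43 CPM ± 0.70 in MONO-MAC-6. The low-IC50 lines held 6 PDE6B reads in all, 5 of these lines held 0, and the highest was OCI-AML2 at 0.0497 CPM. The gene was thus read in every high-IC50 line and was near the limit of detection in every low-IC50 line, a 7.23-fold gap on CPM + 0.5. Its adjusted p was among the 5 smallest of edgeR's quasi-likelihood test, at 0.0996, and DESeq2 (1.31e-16) and limma on line means (0.000568) called it. PDE6B passed the filter on low counts through the high-IC50 lines alone and was picked for its gap in the same values. These adjusted p values are therefore no separate support. Its fitted log2 fold change of 9.14 depends on the prior count because the low-IC50 lines have so few reads.

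ARMCX1, a protein of the mitochondrial outer membrane, and AEBP1, known as a transcriptional repressor and as a matrix protein, followed. ARMCX1 was at 27.4 CPM in F-36P, 17.6 in KASUMI-1 and 20.9 in MONO-MAC-6. In the low-IC50 lines ARMCX1 had a median of 0.0163 CPM and a highest level of 3.28 CPM, in THP-1. AEBP1 was at 22.5, 33.2 and 49.8 CPM in the 3 high-IC50 lines, against a median of 0.0491 CPM and a highest level of 5.56 CPM, in OCI-AML3. A single low-IC50 line thus came within 4.77-fold of the high-IC50 lines for ARMCX1 and within 3.8-fold for AEBP1, and the other 7 lines were at or below 0.151 CPM for both genes. The adjusted p was 0.385 and 0.368 by the quasi-likelihood test, while limma on line means called both genes (adjusted p = 0.0127 and 0.021). Both genes were picked for their gaps in the same values, so these adjusted p values are no separate support.

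CKB, the brain form of creatine kinase, and MDK, the heparin-binding growth factor midkine, were highest in F-36P. CKB was at 406 CPM in F-36P, 134 in KASUMI-1 and 32.1 in MONO-MAC-6, and its low-IC50 lines spanned 0.726 to 13.4 CPM (median 8.70). MDK was at 464, 63.4 and 15.2 CPM, and its low-IC50 lines spanned 0.400 to 8.46 CPM (median 3.56). In both genes the 3 high-IC50 lines differed more from each other than MONO-MAC-6 differed from the nearest low-IC50 line. KLF1, the transcription factor that drives globin genes in red cell precursors, had the same order, at 232 CPM in F-36P, 2.12 in KASUMI-1 and 1.78 in MONO-MAC-6, against 0.0343 to 0.570 CPM in the low-IC50 lines. It was the one erythroid marker of 4 tested that separated the groups. HBB, the β-globin gene, had 0 reads in KASUMI-1 and in MONO-MAC-6.

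NR6A1, an orphan nuclear receptor, and KCTD7, a member of a family with a potassium channel tetramerisation domain, were instead at like levels in the 3 high-IC50 lines. NR6A1 was at 35.2 CPM in F-36P, 39.6 in KASUMI-1 and 31.2 in MONO-MAC-6, and at 3.08 to 15.4 CPM in the low-IC50 lines (median 9.22). KCTD7 was at 30.0, 30.5 and 26.3 CPM, and at 2.82 to 14.0 CPM in the low-IC50 lines (median 9.93). Their log2 fold changes were 1.82 (standard error 0.41) and 1.59 (standard error 0.40), with adjusted p = 0.263 and 0.288 by the quasi-likelihood test, 0.00708 and 0.0198 by DESeq2 and 0.284 and 0.304 by limma on line means. NR6A1 and KCTD7 were also picked for their gaps in these values. SH3PXD2A, the podosome scaffold TKS5, was at 37.7, 108 and 111 CPM against 0.0674 to 20.9 CPM. The remaining 3 of the 12 higher genes stayed at 7.22 CPM or less in every line. SRSF12, of the SR family of splicing factors, reached 5.10 CPM in F-36P, CTHRC1, a secreted matrix protein, 7.22 CPM in KASUMI-1, and SH2D5 2.38 CPM in KASUMI-1, and the highest low-IC50 line was at 0.793, 0.112 and 0.144 CPM.

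Among the lower genes, CYFIP2, a subunit of the WAVE complex that starts actin branches, was at 0.517 CPM in F-36P, 0.985 in KASUMI-1 and 0.144 in MONO-MAC-6. Its low-IC50 lines ranged from 5.11 CPM in THP-1 to 160 CPM in NOMO-1 (median 37.8). ISL2, a LIM homeodomain factor of neurons, was at 0.0544, 0.0169 and 0.624 CPM, against 2.94 to 39.8 CPM (median 9.88). Both genes were thus close to silent in the 3 high-IC50 lines and spread over more than a 10-fold range in the others. PGBD5, a gene derived from a piggyBac transposase, was at 0.514, 0.0338 and 0.0159 CPM against 1.78 to 27.5 CPM. PGGHG, a glucosidase that acts on sugars of collagen, was at 4.22, 9.05 and 9.83 CPM against 20.4 to 67.5 CPM. ZNF559, a zinc finger gene, ATPSCKMT, which methylates a subunit of ATP synthase, and 5 genes of chromosome 13 were the other lower genes named, each with a gap of 1.57 to 1.96-fold.

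**Figure D1:**
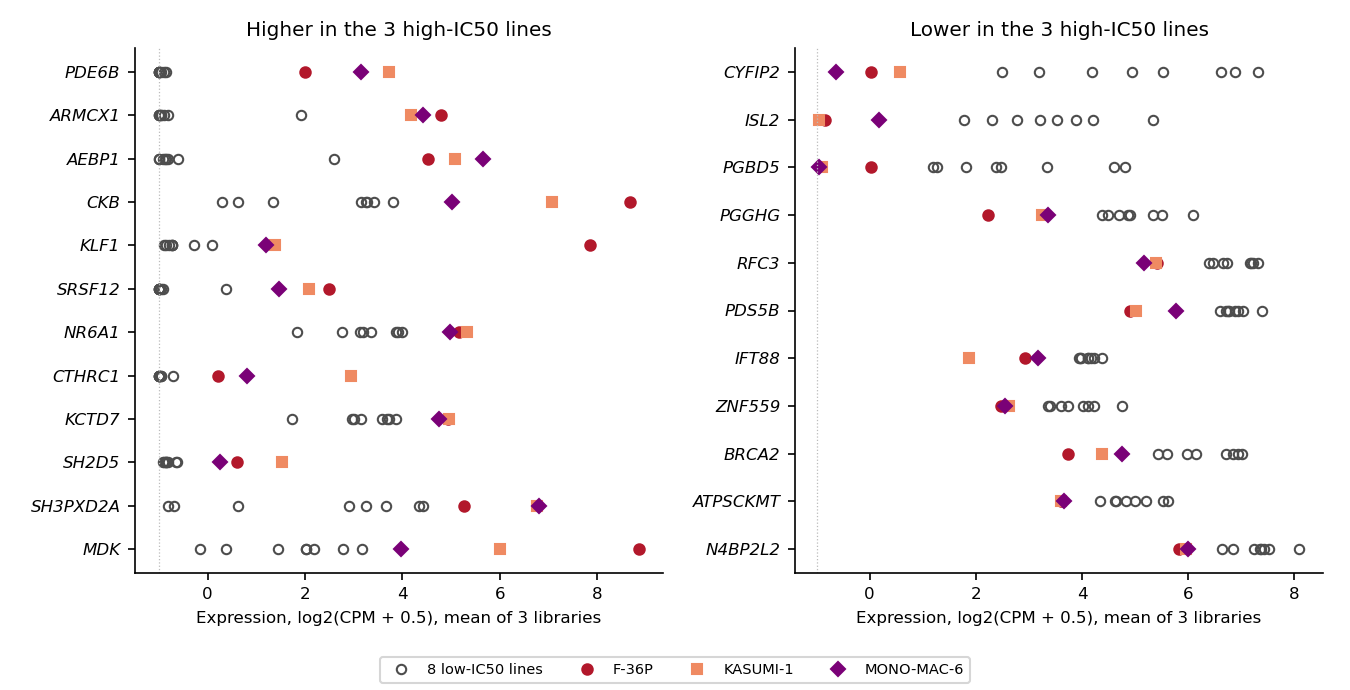
Levels of the 12 higher (left) and 11 lower (right) protein-coding genes named for their gaps, as log2(CPM + 0.5) on the horizontal axis, with the mean of 3 libraries for each line; filled symbols are the 3 high-IC50 lines, open circles the 8 low-IC50 lines, and the dotted line marks 0 CPM. PDE6B shows the widest gap of the higher genes, and KLF1, CKB and MDK are far higher in F-36P than in MONO-MAC-6.

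The stretches around the starts of 3 of these genes are shown because the genes were near 0 in one of the groups. They are RefSeq sequence of GRCh38.p14, 250 bases before to 50 after the start, 5′ to 3′, with CG dinucleotides, the sites of DNA methylation, in capitals. PDE6B lies at chr4:625323-625622, plus strand, KLF1 at chr19:12887152-12887451, minus strand and ISL2 at chr15:76336523-76336822, plus strand.
PDE6B: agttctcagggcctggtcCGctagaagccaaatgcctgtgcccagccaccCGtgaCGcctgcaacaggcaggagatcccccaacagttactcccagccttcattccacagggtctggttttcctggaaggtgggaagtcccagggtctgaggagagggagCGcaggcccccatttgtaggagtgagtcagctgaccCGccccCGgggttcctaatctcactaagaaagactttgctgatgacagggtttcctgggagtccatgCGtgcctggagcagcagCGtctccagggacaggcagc
KLF1: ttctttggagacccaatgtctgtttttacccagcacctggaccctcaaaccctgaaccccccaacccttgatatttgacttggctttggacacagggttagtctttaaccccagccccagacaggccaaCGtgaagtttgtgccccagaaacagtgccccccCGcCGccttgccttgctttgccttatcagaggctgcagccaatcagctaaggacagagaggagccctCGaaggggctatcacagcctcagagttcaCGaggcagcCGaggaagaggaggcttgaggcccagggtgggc
ISL2: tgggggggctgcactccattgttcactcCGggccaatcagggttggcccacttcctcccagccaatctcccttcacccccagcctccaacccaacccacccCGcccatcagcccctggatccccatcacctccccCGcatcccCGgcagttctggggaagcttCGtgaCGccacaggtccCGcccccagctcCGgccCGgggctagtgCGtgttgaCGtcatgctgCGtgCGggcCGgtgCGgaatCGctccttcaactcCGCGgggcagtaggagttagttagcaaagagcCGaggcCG
PDE6B has 8 CG dinucleotides, KLF1 6 and ISL2 20, against a median of 26 over the 11896 tested genes whose symbol has such a sequence. These 3 were picked as examples and do not stand for all such genes. Of other named genes near 0 in most lines of a group, CYFIP2 has 35, PGBD5 46 and SRSF12 37, while ARMCX1 has 14 and ABCB1 1. The medians over the separated genes were also 26, for 157 higher and for 120 lower genes. The letters AGATAA, which GATA factors bind, were searched on either strand. They were in 3.82% of the higher and 3.33% of the lower genes' windows, and in 5.42% of all tested genes' windows. Other forms of the GATA site were not counted.

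TOP2A was lowest in F-36P. Its 3 libraries there were at 80.0, 117 and 210 CPM, and KASUMI-1 was at 346, 370 and 258 CPM. MONO-MAC-6 was at 582 CPM ± 57.9 (SD, n = 3), inside the low-IC50 range of 533 to 892 CPM (median 618), so the groups overlapped. Its log2 fold change of -0.90 had a standard error of 0.35 and an adjusted p of 0.436 by the quasi-likelihood test. TOP2B was at 159 CPM in F-36P, 266 in KASUMI-1 and 740 in MONO-MAC-6, against 275 to 490 CPM, so MONO-MAC-6 lay above and the other high-IC50 lines below every low-IC50 line. Its log2 fold change was -0.02 (standard error 0.36).

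ABCB1 was read in F-36P at 5.21 CPM ± 2.17 (SD, n = 3) and in KASUMI-1 at 11.1 CPM ± 1.01 (SD, n = 3). It was at 0.0159 CPM in MONO-MAC-6 and at most 0.236 CPM, in THP-1, among the low-IC50 lines, 4 of which held 0 reads. High ABCB1 thus marked F-36P and KASUMI-1 but not MONO-MAC-6. ABCC1, another efflux pump, was at 26.1, 38.6 and 22.2 CPM against 9.53 to 32.0 CPM. SLFN11 had 0 reads in KASUMI-1 and 7.96 CPM in F-36P, while MONO-MAC-6 had the highest level of all lines, 207 CPM, and the low-IC50 lines ranged from 17.9 CPM in MV-4-11 to 198 CPM in OCI-AML2. None of these 5 genes was therefore higher, or lower, than the low-IC50 range in all 3 high-IC50 lines. In the study, SLFN11 was among the genes with levels that correlated with etoposide response across the lines. That is another measure than the separation used here.

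**Figure D2:**
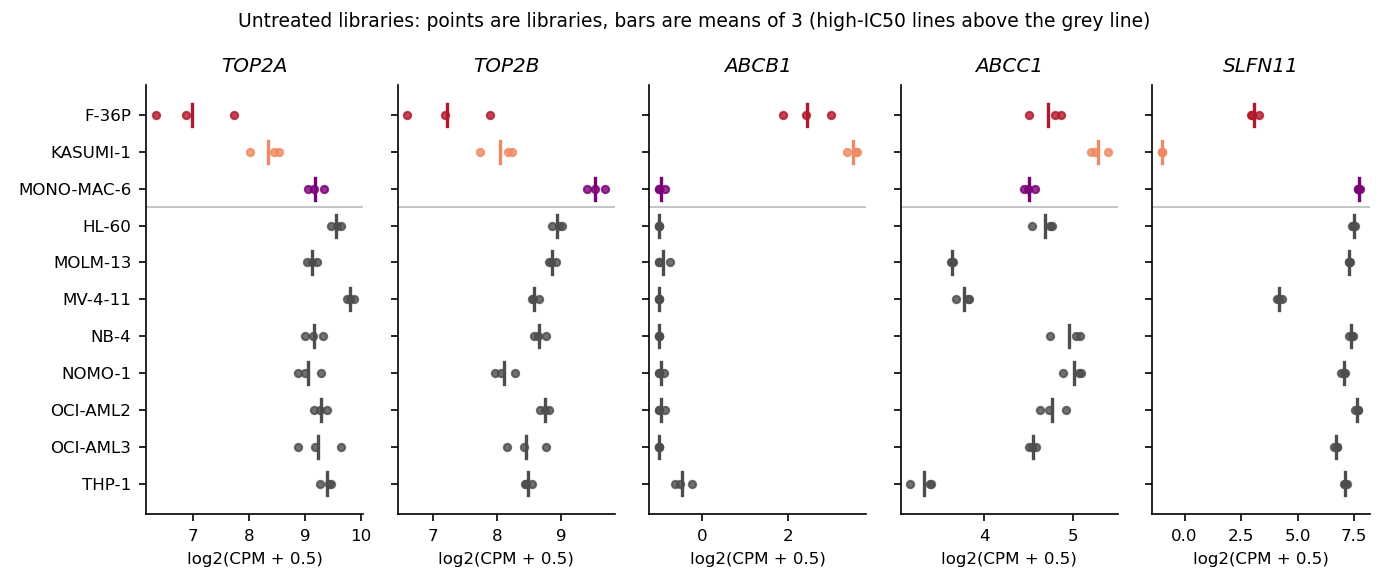
Levels of TOP2A, TOP2B, ABCB1, ABCC1 and SLFN11 as log2(CPM + 0.5) on the horizontal axes for each untreated library of the 11 lines, with bars at the mean of 3 libraries. In each gene MONO-MAC-6 lies with or above the low-IC50 lines, while F-36P and KASUMI-1 carry ABCB1 and little SLFN11.

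Members of the break-sensing and homologous recombination lists were among the lower genes. Of 15 checkpoint genes tested, 3 were separated, all lower, and of 14 homologous recombination genes 3 (21.4%) were separated, all lower, against 1.04% of all genes. The quasi-likelihood test called none of the 29, limma on line means none, and DESeq2 BRCA2 and RAD50. Over the checkpoint list the median difference from the mean of the low-IC50 lines was -0.17 in F-36P, -0.57 in KASUMI-1 and 0.04 in MONO-MAC-6. The low-IC50 lines had medians from -0.27 to 0.19. Over the homologous recombination list it was -0.32, -0.45 and -0.55 against -0.20 to 0.35. ATM was at 70.2, 77.8 and 249 CPM against 119 to 215 CPM, and NBN at 102, 59.9 and 128 CPM against 83.4 to 232 CPM. BRCA2, a mediator of homologous recombination, differed most. Its libraries in F-36P spanned 8.11 to 19.2 CPM, and the line means were 20.3 CPM in KASUMI-1 and 26.5 CPM in MONO-MAC-6. The low-IC50 lines ranged from 42.9 CPM in THP-1 to 129 CPM in HL-60, and every high-IC50 library lay below every low-IC50 library. Its log2 fold change of -2.12 had a standard error of 0.43, with an adjusted p of 0.188 by the quasi-likelihood test and 0.000211 by DESeq2. BRCA2 was also picked for its gap in the same values.

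The other 5 genes had narrow gaps. RAD50, of the break-sensing complex, was at 29.6 CPM in F-36P, 46.5 in KASUMI-1 and 66.7 in MONO-MAC-6, against 74.5 to 141 CPM (median 91.2), with an adjusted p of 0.298 by the quasi-likelihood test and 0.0264 by DESeq2. MRE11, the nuclease of that complex, was at 60.4, 56.3 and 48.7 CPM against 67.1 to 169 CPM, and ATR at 50.8, 43.1 and 41.8 CPM against 53.5 to 82.4 CPM. BRCA1 was at 91.4, 64.3 and 81.1 CPM against 96.6 to 169 CPM, and its partner BARD1 at 18.3, 16.4 and 28.4 CPM against 30.1 to 54.2 CPM. These 5 gaps were 1.05 to 1.12-fold, and single libraries of the groups overlapped in all 5 genes. ATR, for example, was at 32.8, 45.3 and 74.4 CPM in the 3 libraries of F-36P. Without replicate 1 of every line, ATR, MRE11 and BRCA1 no longer separated the groups.

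**Figure D3:**
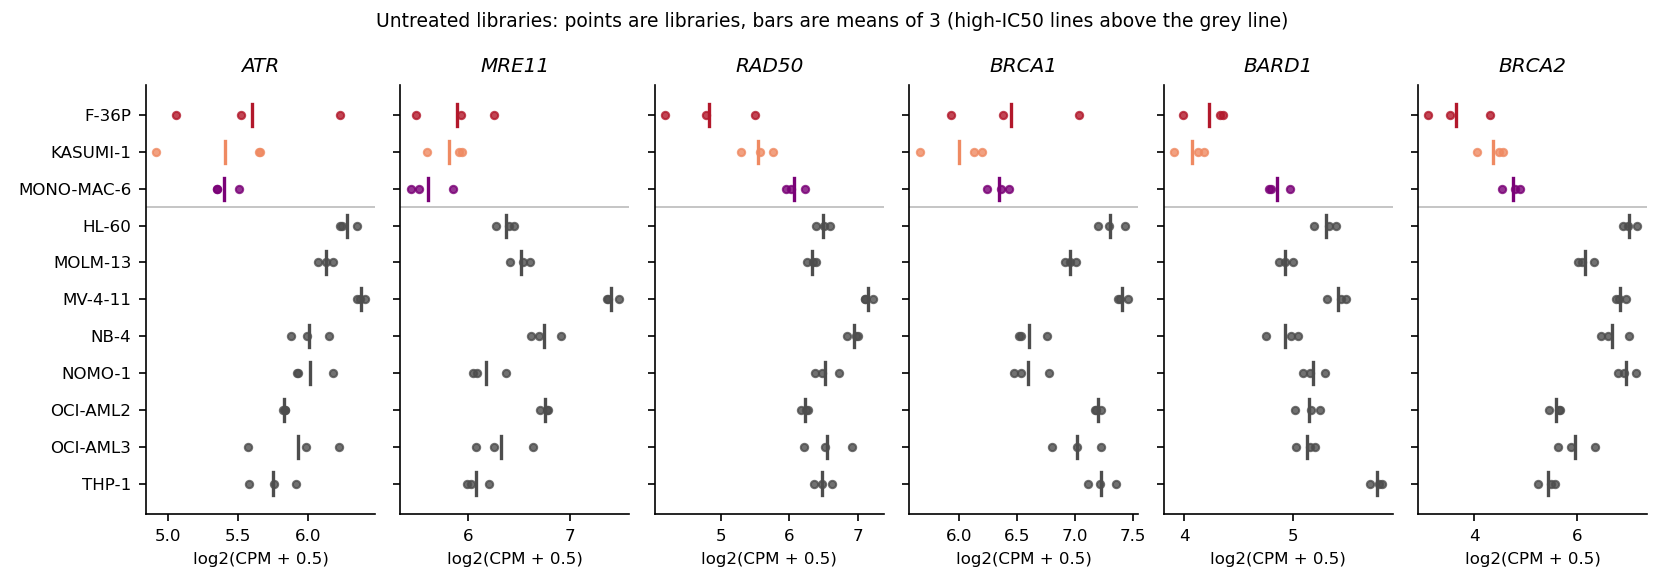
Levels of 6 break-sensing and homologous recombination genes as log2(CPM + 0.5) on the horizontal axes for each untreated library of the 11 lines, with bars at the mean of 3 libraries. The bars of the 3 high-IC50 lines lie left of the other bars in each gene, but single libraries overlap in all but BRCA2.

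The spread within F-36P went with base composition. Transcripts below 40% GC were at -0.37, -0.01 and 0.19 (median log2 level relative to all libraries) in replicates 1, 2 and 3 of F-36P and at -0.06, -0.14 and -0.35 in KASUMI-1. They were at 0.22, 0.03 and 0.08 in MONO-MAC-6, the first above every low-IC50 library, and the 24 low-IC50 libraries ranged from -0.16 to 0.19. The repair genes are of this kind or near it, from 36.2% GC in BRCA2 to 41.8% in BRCA1. When the trend with GC share and length was taken out of each library, these 6 genes still separated the groups, with gaps from 1.03-fold in ATR to 1.86-fold in BRCA2, and TOP2A (38.9% GC) then did so as well, by 1.08-fold. The number of separated genes was then 225 higher and 191 lower, of which 176 and 146 were also separated without this step.

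Genes of division and replication were mostly lower, without passing the test. All 17 G2/M genes tested had a negative log2 fold change, with a median of -0.45 against -0.03 over all genes, and 0 were called or separated. Their median difference from the mean of the low-IC50 lines was -0.48 in F-36P, -0.67 in KASUMI-1 and -0.26 in MONO-MAC-6, while the low-IC50 lines had medians from -0.18 to 0.32. PLK1, a mitotic kinase, was at 118 CPM in F-36P, 62.1 in KASUMI-1 and 174 in MONO-MAC-6 against 140 to 238 CPM, and AURKB, another, at 48.8, 36.3 and 28.9 CPM against 35.8 to 107 CPM. All 14 replication genes also had a negative log2 fold change (median -0.45). In them MONO-MAC-6 was lowest, with a median difference of -0.87 against -0.23 in F-36P and -0.25 in KASUMI-1. The low-IC50 lines had medians from -0.33 to 0.33, a range that holds F-36P and KASUMI-1. The difference was negative for all 14 genes in MONO-MAC-6, for 9 in F-36P and for 11 in KASUMI-1. MCM3, a subunit of the replicative helicase, was the one member that separated the groups, at 442, 459 and 450 CPM against 469 to 881 CPM, a 1.02-fold gap that was lost without replicate 1 and also without replicate 2. The RNA of a bulk sample does not tell whether fewer cells were in division or each made less of these RNAs.

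Of 24 pathway lists with 307 tested genes, 5 had a separated member, 9 genes in all and each lower. Over all genes tested, 1.04% were lower and 1.19% higher. PSMD7, of the proteasome cap, was at 121, 123 and 103 CPM against 142 to 218 CPM, while the 31 proteasome genes as a list had a median of 0.03. NLRC5, which activates MHC class I genes, was at 0.591 CPM in F-36P, 16.1 in KASUMI-1 and 36.2 in MONO-MAC-6 against 52.8 to 146 CPM, a 1.45-fold gap that held in every library. Over the 11 class I genes the median difference was -1.35 in F-36P, -1.84 in KASUMI-1 and 0.81 in MONO-MAC-6, and only NLRC5 separated the groups. TAPBP in F-36P, at 18.1 CPM, was within the low-IC50 range of 7.19 to 19.5 CPM. All 10 MHC class II genes had a positive log2 fold change with a median of 2.52, but this rested on F-36P. Without F-36P the median was -0.59, and HLA-DRA was at 120 CPM in F-36P, 5.18 in KASUMI-1 and 4.63 in MONO-MAC-6 against 0 to 41.2 CPM.

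Apoptosis genes also differed by line. BCL2 was at 52.0 CPM in F-36P, 87.0 in KASUMI-1 and 119 in MONO-MAC-6, and NB-4 at 105 CPM was the single low-IC50 line below MONO-MAC-6, the others being at 178 to 314 CPM. BCL2L1, which codes for BCL-XL, was at 306 CPM in F-36P but at 44.7 and 22.6 CPM in KASUMI-1 and MONO-MAC-6, inside the low-IC50 range of 22.6 to 45.4 CPM. The anti-apoptotic list had a median of -0.16 and the pro-apoptotic list -0.36, the p53 list -0.31, and none of them had a separated member. The same held for the topoisomerase list (median -0.12), the efflux transporters (0.55) and the glutathione enzymes (0.26).

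The lower genes lay unevenly over the chromosomes, a view chosen after the values were seen. On chromosome 13, 20 of 345 tested genes (5.80%) were lower in all 3 high-IC50 lines, against 1.04% of all genes, and 1 was higher. Chromosome 16 had 29 lower genes of 862 (3.36%) and 1 higher. The higher genes were most frequent on chromosome 21, with 9 of 205 (4.39%), and on chromosome 4, with 17 of 638 (2.66%), against 1.19% of all genes. Chromosome 17 had many of both, with 28 higher (2.60%) and 19 lower (1.76%) of 1078.

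**Figure D4:**
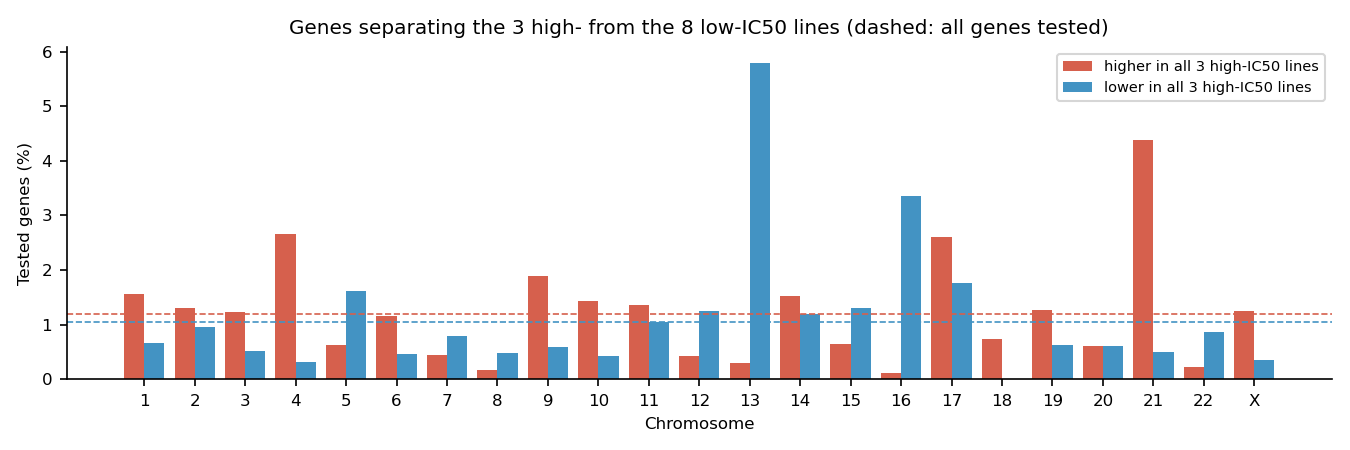
Share of the tested genes of each chromosome, in percent, that were higher (red) or lower (blue) in all 3 high-IC50 lines; dashed lines are the shares over all genes, 1.19% and 1.04%. The blue bars of chromosomes 13 and 16 and the red bar of chromosome 21 stand above the others.

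On chromosome 13 the lower genes formed a run. From BRCA2 to SUPT20H (GRCh38, chr13:32315086-37059713), 11 of 22 tested genes were lower in all 3 high-IC50 lines. Over the 13 named genes of this region that averaged 5 CPM or more, the median level relative to the 11 lines was -1.23 in F-36P, -1.27 in KASUMI-1 and -0.98 in MONO-MAC-6 (log2), and from -0.25 to 0.84 in the low-IC50 lines. Over the other 189 genes of the chromosome the medians were -0.92 in F-36P, -0.41 in KASUMI-1 and 0.02 in MONO-MAC-6. The lower level thus took in most of the chromosome in F-36P, while in MONO-MAC-6 other stretches were at or above the median of the lines. The bounds of the region were set by the lower genes themselves, so its medians are a description.

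PDS5B, a regulator of the cohesin ring, was at 29.3 CPM in F-36P, 31.9 in KASUMI-1 and 53.9 in MONO-MAC-6, against 96.8 to 167 CPM in the low-IC50 lines (median 113). RFC3, of the clamp loader that serves replication, was at 42.3, 41.7 and 35.4 CPM against 83.5 to 158 CPM (median 125). RFC3 was at like levels in the 3 high-IC50 lines, while PDS5B in MONO-MAC-6 lay between the other high-IC50 lines and the low-IC50 range. Their log2 fold changes were -1.63 (standard error 0.24) for PDS5B and -1.60 (standard error 0.25) for RFC3, with adjusted p = 0.0996 and 0.11 by the quasi-likelihood test. DESeq2 (adjusted p = 3.02e-08 and 2.2e-07) and limma on line means (0.021 and 0.04) called both. PDS5B and RFC3 were picked for their gaps in the same values, so these adjusted p values are no separate support. N4BP2L2 was at 56.2, 61.9 and 63.2 CPM against 99.4 to 272 CPM, EXOSC8, of the RNA exosome, at 37.9, 39.9 and 40.9 CPM against 63.0 to 169 CPM, and SUPT20H, of the SAGA complex, at 40.5, 41.1 and 37.5 CPM against 58.8 to 128 CPM. EXOSC8 and SUPT20H overlap on the chromosome, as do N4BP2L2 and the non-coding N4BP2L2-IT2, the pseudogene IFIT1P1 lies within BRCA2 and an unnamed lncRNA within RFC3, so the 11 lower genes of the run are not all separate. Nearer to the start of the chromosome IFT88, of the ciliary transport machinery, was at 7.09, 3.15 and 8.5 CPM against 14.9 to 20.4 CPM.

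The starts of PDS5B (chr13:32586202-32586501, plus strand) and RFC3 (chr13:33817899-33818198, plus strand) are shown in the same way, as neighbours in this run that were lower in all 3 high-IC50 lines.
PDS5B: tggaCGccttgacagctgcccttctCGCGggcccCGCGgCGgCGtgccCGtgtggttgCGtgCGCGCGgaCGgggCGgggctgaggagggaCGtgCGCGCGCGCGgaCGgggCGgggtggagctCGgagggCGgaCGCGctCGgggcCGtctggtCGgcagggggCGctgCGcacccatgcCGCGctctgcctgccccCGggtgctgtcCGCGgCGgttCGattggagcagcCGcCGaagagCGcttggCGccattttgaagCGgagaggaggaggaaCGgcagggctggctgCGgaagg
RFC3: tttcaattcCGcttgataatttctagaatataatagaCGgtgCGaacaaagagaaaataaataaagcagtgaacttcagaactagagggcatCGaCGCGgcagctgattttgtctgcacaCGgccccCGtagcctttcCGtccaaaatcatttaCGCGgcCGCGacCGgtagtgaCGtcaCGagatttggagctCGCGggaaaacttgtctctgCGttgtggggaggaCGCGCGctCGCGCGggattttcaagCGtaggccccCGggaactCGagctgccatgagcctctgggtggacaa
They hold 45 and 28 CG dinucleotides, more than the starts of PDE6B and KLF1. AGATAA is in neither of them, and also not in the starts of PDE6B, KLF1 and ISL2. Other forms of the GATA site were not searched, so this does not show that these starts lack one. Among the named genes with such a sequence, only ABCB1 has AGATAA.

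**Figure D5:**
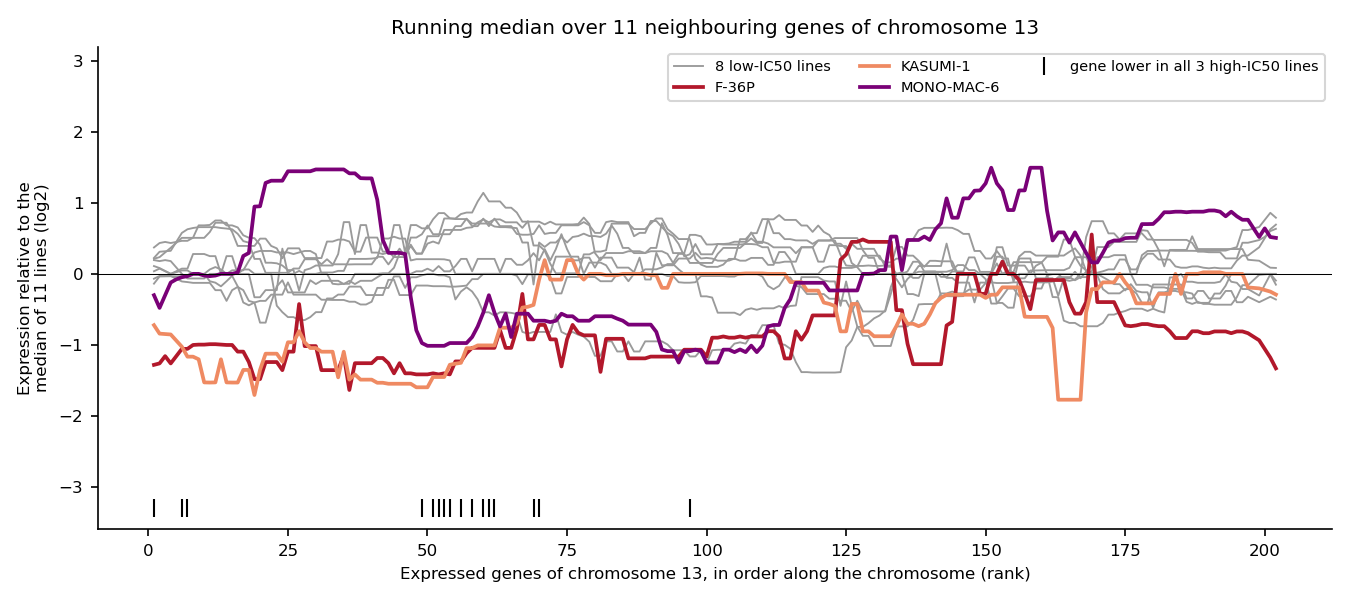
Level relative to the median of the 11 lines (log2, vertical axis) of 202 expressed genes of chromosome 13, in order along the chromosome (horizontal axis, rank), as running medians over 11 neighbouring genes; coloured lines are the 3 high-IC50 lines, grey lines the 8 low-IC50 lines, and ticks mark the genes lower in all 3. The coloured lines lie together near -1 only around the densest ticks, while MONO-MAC-6 lies above 1 in stretches on either side of them.

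RB1, the retinoblastoma gene, farther along the chromosome, was at 45.3 CPM in F-36P, 63.5 in KASUMI-1 and 7.69 in MONO-MAC-6, all below the low-IC50 lines, with a 1.02-fold gap. Of the 20 lower genes of chromosome 13, 15 were protein-coding, 7 were lower in every library, and 17 stayed lower with the trend in GC share and length taken out (RB1 and WBP4 were among those that did not).

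Other runs were shallower. Windows of 5 Mb with the most separated genes were chr17:80-85 Mb with 11 higher of 98, chr13:30-35 Mb with 7 lower of 23 and chr16:65-70 Mb with 7 lower of 97. On chr17:80-85 Mb KASUMI-1 and MONO-MAC-6 had median levels of 0.51 and 0.30. F-36P was at 0.0 there, within the low-IC50 range of -0.20 to 0.02. In the window of chromosome 16 F-36P and MONO-MAC-6 had median levels of -0.63 and -0.81, but KASUMI-1 was at 0.13, next to the low-IC50 lines at 0 to 0.16. It holds CBFB, which encodes the partner of the RUNX factors and was at 57.7, 75.5 and 82.9 CPM against 102 to 171 CPM. On chr17:5-10 Mb the 3 high-IC50 lines had medians of -0.49, -0.53 and -0.52, but THP-1 was lower still, at -0.79. On chr21:35-40 Mb the medians were 0.47, 0.20 and 0.57 against -0.97 to 0.04, and HMGN1, a nucleosome-binding protein, was at 1011.9, 490 and 483 CPM against 138 to 414 CPM.

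After 24 h of etoposide at each line's own IC50, many of the separated genes were still separated. The dose was thus above 4 µM in the high-IC50 lines and below 2 µM in the others. In F-36P the study's IC50 lay above the highest dose of its viability assay. What etoposide changed in a group cannot be told apart from the dose. The etoposide libraries of OCI-AML2 were discarded by the study, so this compares 3 lines with 7, and the same lines are used as before. Since 0 genes were called, the question was put to all separated genes. Of the 215 higher genes 89 (41.4%) were still higher, and of the 188 lower genes 60 (31.9%) were still lower, against 1.75% and 1.68% of all genes that were so in the etoposide libraries. Of the 12 higher genes with the widest gaps, KLF1 and SH3PXD2A overlapped after etoposide, and the other 10 did not. PDE6B was at 6.65 to 17.4 CPM in the high-IC50 lines and at most 0.0162 CPM in the others. Of the 11 lower genes, PGBD5 and BRCA2 overlapped after etoposide. CYFIP2 was at 0.0607 to 3.65 CPM against 7.84 to 126 CPM, and PDS5B at 19.1 to 69.6 CPM against 72.1 to 150 CPM. Among the repair genes ATR stayed lower, at 32.2 to 43.6 CPM against 43.7 to 76.3 CPM, while BRCA1, BARD1, MRE11 and RAD50 overlapped, BRCA1 being at 157 to 172 CPM in the high-IC50 lines and at 66.9 to 252 CPM in the others. On chromosome 13, 10 of the 20 lower genes stayed lower.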

How the data were processed

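RNA was sequenced single-end from AML cell lines, and 33 untreated libraries (3 per line, 11 lines) were used, with 30 etoposide libraries for the last comparison. The authors aligned reads to GRCh38.p7 (STAR 2.5.3a, gencode annotation), and deposited 1 column of counts of reads per gene per library, without normalization. From the deposited counts, 57992 identifiers were analysed, and 45 pseudoautosomal chromosome Y copies with 0 reads were left out. Gene names and positions are from gencode release 44, which holds 56948 of them.

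Counts were summed over the 3 libraries of a line, since lines and not libraries are the replicates of an IC50 group, filtered with filterByExpr (minimum count 10, minimum total 15) and tested in R 4.3.3 with edgeR 4.0.16 (TMM, quasi-likelihood test, Benjamini-Hochberg adjustment). Called genes had an FDR under 0.05 and differed more than 2-fold. The filter keeps genes read in at least about 3 lines, so most genes of a single line were not tested. A gene near 0 in all low-IC50 lines, such as PDE6B, passed it through the high-IC50 lines alone. Genes named for their gaps were picked from the values that the tests used, so their p-values are a description. CPM was computed per library on TMM library sizes and averaged per line. The ratio between the nearest lines used CPM + 0.5. The named genes were, by rule, the 12 separated protein-coding genes with the widest gap in each direction (called ones first; 1 of the lower genes is not reported here), TOP2A, TOP2B, ABCB1, ABCC1 and SLFN11, and the separated members of 24 pathway and 10 marker lists. Genes of the chromosome windows, and the list members that were not separated, were named after their values were seen. The groups, lists and rule were chosen with earlier results of these data known.

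Alternatives were RLE factors, library size alone, other filters, DESeq2 1.42.0, limma 3.58.1 on line means, limma-voom over the 33 libraries with the line as random effect with and without a replicate block, no fold change minimum, other pseudocounts, and omission of each replicate number and each line. The removal of a trend with GC share and transcript length from each library (lowess, span 0.2, 98.9% of the tested genes with a value) was added after seeing the data. Steps were tested on simulated data. With the fitted dispersions, the quasi-likelihood test called 1 of 50 genes changed 2-fold, 21 of 50 changed 4-fold and 32 of 50 changed 16-fold. A call count of 0 therefore does not show that the groups are alike. Python 3.11.15 with pandas 2.3.3 and matplotlib 3.10.9 did the rest. The kit kept strand, but whether the counts do is not given in the sources used here. Counts of genes that overlap on opposite strands may therefore be off, in a direction that was not tested.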

Additional observations from a re-analysis of the deposited data

Results flagged for a closer look

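Among the 37 named genes, 7 values in the 8 low-IC50 lines stood apart from the other low-IC50 lines by Dixon's test on log2(CPM + 0.5), which flags about 1 in 20 groups by chance. THP-1 was highest for ARMCX1 (3.28 CPM, the next line at 0.0667), for SRSF12 (0.793 CPM, next 0.0328) and for ABCB1 (0.236 CPM, next 0.0339). OCI-AML3 was highest for AEBP1 (5.56 CPM, next 0.151) and for CTHRC1 (0.112 CPM, next 0.0174). MV-4-11 was lowest for KCTD7 (2.82 CPM, next 7.35) and for SLFN11 (17.9 CPM, next 103). For ARMCX1, AEBP1, SRSF12 and CTHRC1 the width of the gap to the high-IC50 lines is thus set by 1 low-IC50 line.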

How the results depend on the processing

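The call count was 0 with RLE factors, library size alone, both other filters, no fold change minimum and the GC and length trend removed. It was 303 with DESeq2, 11 with limma on line means, and 416 with limma-voom over 33 libraries, which counts libraries of a line as partly independent. With the replicate block the voom count was 371. Same-numbered libraries of different lines share only a number, and the main test, on sums per line, has no place for a block. Leaving out a replicate number gave 0 to 2 calls and leaving out a line 0 to 96 (96 without MONO-MAC-6, 4 without THP-1, 1 without KASUMI-1), for which the cause was not tested. The 403 separated genes became 356 to 389 without a replicate number and 424 to 2041 without a line, where fewer lines have to be passed, and 112 over single libraries. The higher genes became 190 to 207, 231 to 983 and 73, and the lower genes 166 to 182, 193 to 1058 and 39. The 7 higher genes at least 2-fold apart became 13 and 4 with pseudocounts of 0.1 and 2 CPM, 4 with a mean of at least 5 CPM, 5 to 8 without a replicate number and 7 to 102 without a line. The 7 lower ones became 2 with a pseudocount of 2 CPM, 4 to 7 and 7 to 104. Of 32 named genes that separated the groups, 32 still did so with RLE factors, library size alone, no filter and the trend removed (leaving out a line can hardly end a separation), 28 without replicate 1, and MCM3 was lost without replicate 2 and with a mean of at least 5 CPM. TOP2B, at a log2 fold change of -0.02, changed sign to 0.35, 0.18, 0.03 and 0.01 without F-36P, KASUMI-1, HL-60 and MOLM-13, and was -0.86 without MONO-MAC-6. No other named gene changed sign. The difference in detected genes was 40.3 at 1 CPM, 58.2 at 0.5 CPM and 19.0 at 5 CPM. Genes at or under about 0.05 CPM in a line were not measurable at this depth.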
